A study of Mus musculus with 23 samples.

Results

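The transcripts of 10 genes that build the elastic fibre or cross-link it were followed in the lungs of mouse offspring: elastin (Eln), fibrillin-1 and fibrillin-2 (Fbn1, Fbn2), the fibulins Fbln1, Fbln2 and Fbln5, the microfibril-associated proteins Mfap4 and Mfap5, lysyl oxidase (Lox) and lysyl oxidase-like 1 (Loxl1). They were taken by symbol from the 35322 genes of the expression table, each was listed there, and all 10 passed the filter of at least 0.5 RPM (reads counted on the gene, divided by the reads of the library in units of 1000000) in at least 4 of the 23 libraries. RNA-Seq had been performed on lung of 13-week-old female Balb/c mice. Sham offspring (n = 7) were born to dams given saline and PM offspring (n = 7) to dams given PM2.5, fine particulate matter from air, by the nose before mating, in gestation and until weaning. The Sham-OVA (n = 5) and PM-OVA (n = 4) offspring of the same kinds of dam were also sensitised to and challenged with ovalbumin (OVA), an egg protein used to induce allergic airway disease, whereas the control challenge was PBS per the labels and nebulised saline per the methods. Per the methods, sensitisation used OVA on aluminium hydroxide, challenge used aerosolised OVA, and lungs were collected after a lung function test with inhaled methacholine. The methods describe the sensitisation for each offspring, so whether the control animals were sensitised too is not clear from them. No offspring received PM2.5 directly, and 1 library stands for 1 animal, but which animals were littermates is not given in the sources used here.

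Elastic fibres let the lung recoil after each breath. Fibroblasts, myofibroblasts and smooth muscle cells secrete tropoelastin, the soluble product of Eln, onto a scaffold of microfibrils made mainly of fibrillin, with fibulins guiding the assembly and copper-dependent lysyl oxidases joining the elastin chains covalently. Most elastin is laid down around birth, when alveoli form, and the finished protein turns over very slowly, so a transcript level in adult lung describes current expression and not the amount of fibre.

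The reads counted on genes numbered 13089691 to 17393579 in the 14 unchallenged libraries and 2298645 to 12355561 in the 9 OVA libraries. The 3 shallowest were replicate 3 of Sham-OVA with 2298645 reads, replicate 4 of PM-OVA with 4324326 and replicate 3 of PM-OVA with 5922469, where 1 read was worth 0.311, 0.182 and 0.133 RPM. The fits without these 3 are called those of the deeper libraries. Of PM-OVA they keep only replicates 1 and 2, so a lost call there can also reflect the smaller group. Sham replicate 1 had 0.289 RPM of Xist and 54.0 RPM of the Y-linked Eif2s3y, against its female label, while Eif2s3y was at 0 in the other 22 libraries. Lung epithelial markers were present in every library, at a summed 23800 to 64700 RPM over 7 genes. The median gene of the 16795 tested moved after OVA by -0.48 (log2) in Sham and -0.43 in PM offspring on the scale of RPM, and -0.18 and -0.13 after median-of-ratios scaling, so members are also given relative to that median where it matters. Of 8 leukocyte markers, 5 rose, 1 fell (Siglecf) and 2 were not called (Ptprc, Itgam) in each cohort. Their sum went from 250 to 427 RPM in Sham to 4070 to 10400 RPM in Sham-OVA, mostly through Jchain, a gene of antibody-secreting cells, and without Jchain from 189 to 386 RPM in Sham to 278 to 676 RPM in Sham-OVA. In whole lung, fewer cells of a type and less RNA per cell cannot be told apart.

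**Figure D1:**
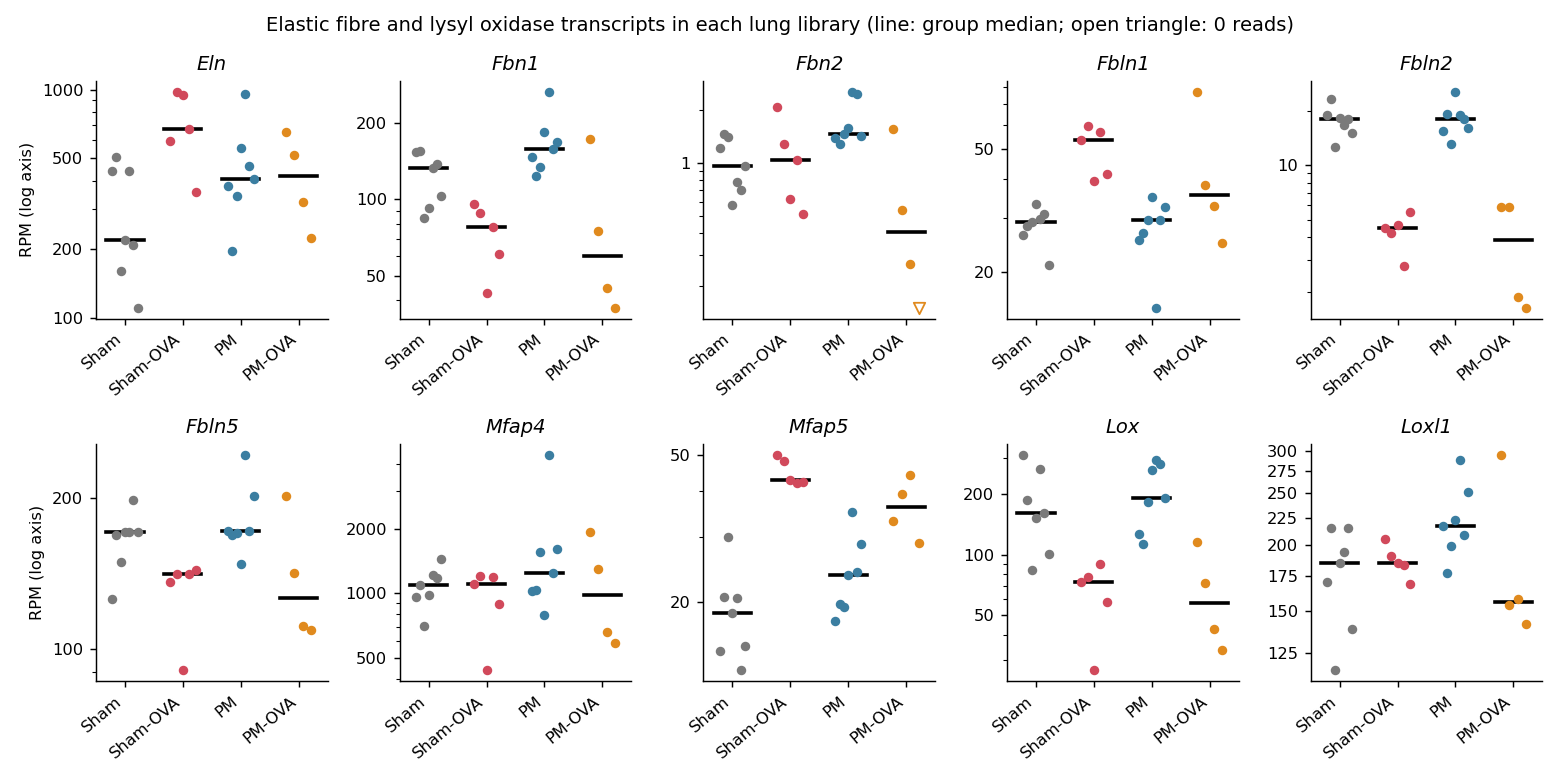
RPM of each of the 10 genes in each library on logarithmic axes, 1 point per library from replicate 1 on the left, with the group median as a line. Fbln2 separated the OVA libraries from the unchallenged ones in both cohorts, Eln lay above every Sham library in 4 of 5 Sham-OVA libraries, and the open triangle marks Fbn2 at 0 reads in PM-OVA replicate 4.

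Per kilobase of the longest annotated transcript, levels in Sham lung spanned from Mfap4, a microfibril-associated protein, at 612 ± 131 RPM per kb to Fbn2 at 0.0914 ± 0.0316 (SD, n = 7). Between them stood Eln at 77.5 ± 41.5, Loxl1 at 53.5 ± 11.4, Lox at 38.0 ± 17.6, Fbln5 at 28.3 ± 3.84, Fbn1 at 10.2 ± 2.40, Fbln1 at 7.76 ± 1.05, Mfap5 at 7.61 ± 2.29 and Fbln2 at 3.66 ± 0.693 RPM per kb. Neighbours from Eln to Fbln5 overlapped in their ranges, as did Fbn1, Fbln1 and Mfap5, so their order is not fixed by these libraries. Mfap4 lay above Eln in all 7 Sham libraries, and Fbn2, the fibrillin best known from developing tissue, lay below Fbln2 in all 7. The order in PM lung differed only in that Mfap5 (9.65 ± 2.44) stood before Fbln1 (7.57 ± 1.74, SD, n = 7), with overlapping ranges. In Sham-OVA lung, Lox dropped from rank 4 to rank 7 at 13.7 ± 5.10 RPM per kb (SD, n = 5), and in PM-OVA it stood at rank 6.

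Of the 10 genes, 6 changed after OVA in Sham offspring, 3 higher (Eln, Fbln1, Mfap5) and 3 lower (Fbn1, Fbln2, Lox), at an adjusted p under 0.05 in limma. Of all 16795 genes tested, 68.1% were called in that comparison, 20.6% higher and 47.5% lower. In PM offspring 5 of the 10 changed, Mfap5 higher and Fbn1, Fbn2, Fbln2 and Lox lower, where 65.3% of all genes were called, 20.1% higher and 45.2% lower. The share of members called was therefore no higher than that of all genes in either cohort. The 10 genes had a median log2 fold change of -0.09 after OVA in Sham and -0.46 in PM offspring, beside -0.48 and -0.43 over all genes. The challenged and unchallenged libraries did not overlap for 3 of the 10 in Sham (Fbln1, Fbln2, Mfap5) and for 1 in PM offspring (Fbln2), as was so for 48.1% and 41.9% of all genes. At the threshold of the study (an adjusted p below 0.000001 together with a log2 fold change beyond 1 in size), limma called 0 of the 10 in either cohort and 4.51% and 0.286% of all genes. At that threshold on the recovered reads, edgeR called 1 of the 10 (Fbln1) in Sham and 0 in PM offspring, beside 8.26% and 0.25% of all genes. DESeq2 called 3 (Fbln1 and Mfap5 higher, Fbln2 lower) and 1 (Fbln2 lower), beside 28.7% and 16.8% of all genes. With median-of-ratios or TMM scaling the split in Sham offspring was 4 higher and 2 lower, and in PM offspring 2 higher and 4 lower. Of all 16795 genes, 4897 were higher and 6407 lower in Sham with median-of-ratios scaling, and 5293 and 5907 with TMM. In PM offspring 4855 were higher and 6012 lower with median-of-ratios scaling, and 5345 and 5498 with TMM.

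**Figure D2:**
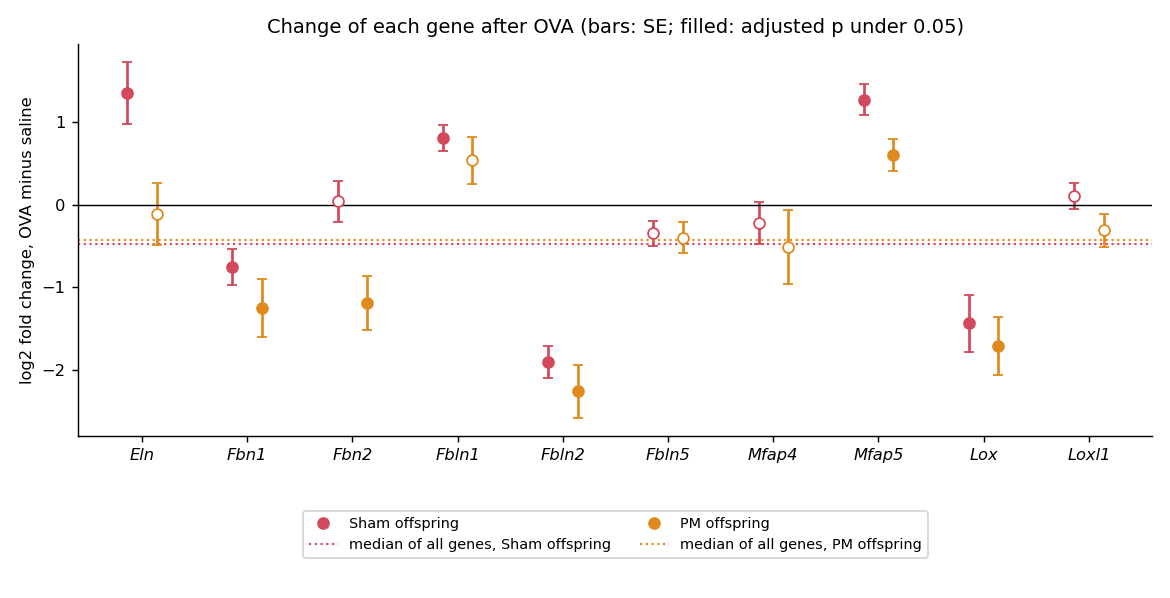
Log2 fold change of each gene after OVA in Sham (red) and PM offspring (orange), with bars for the SE, filled points for an adjusted p under 0.05 and dotted lines for the median of all genes in each cohort. Fbln2 fell furthest in both cohorts, and Eln stood at 1.36 in Sham and -0.11 in PM offspring.

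Eln (ENSMUSG00000029675.12, chr5:134702593-134747323, reverse strand, GRCm38) encodes tropoelastin, the elastic core of the fibre. In Sham lung it ranged from 111 to 509 RPM with a median of 220, so that unchallenged animals of 1 group differed widely. The 5 Sham-OVA libraries held 596, 977, 951, 674 and 358 RPM. Of these, 4 lay above every Sham library and the fifth within their range, and the log2 fold change was 1.36 ± 0.38 (SE, adjusted p = 0.00504), 2.57-fold. In PM lung Eln ranged from 196 to 952 RPM with a median of 407, and the PM-OVA libraries held 650, 515, 323 and 224 RPM, all inside that range. The log2 fold change there was -0.11 ± 0.38 (SE, adjusted p = 0.813), with an interval of 2 SE from -0.86 to 0.65. Over 30 alternatives the Sham value lay between 0.89 and 1.82, while that of PM offspring took either sign. An antisense gene, Gm30003, shares 267 exonic bases with Eln and held at most 0.569 RPM in any library.

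The microfibril genes moved in different directions. Fbn1 (ENSMUSG00000027204.13, chr2:125300594-125507993, reverse strand), which encodes the main fibrillin of adult microfibrils, ranged from 84.6 to 154 RPM in Sham (median 133), and the Sham-OVA libraries held 96.0, 88.5, 42.6, 78.0 and 61.0 RPM. The fall was 0.76 on the log2 scale (-0.76 ± 0.22, SE, adjusted p = 0.00637), with 3 of 5 libraries below every Sham library. In PM lung it ranged from 123 to 264 RPM (median 157) and in PM-OVA it was 173, 74.6, 44.6 and 37.4 RPM, a log2 fold change of -1.25 ± 0.35 (SE, adjusted p = 0.00721). PM-OVA replicate 1 lay within the PM range and the other 3 below it. In the deeper libraries, with only replicates 1 and 2 of PM-OVA, the value was -0.52 (adjusted p = 0.174).

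Transcript length moved with these falls. Among the 876 tested genes with transcripts over 8 kb the median difference after OVA was -1.22 (log2) for Sham and -1.18 for PM offspring, compared with 0.0567 and 0.0927 for genes of 1 to 2 kb, and the longest transcripts of Fbn1 and Fbn2 have 11971 and 11041 bases. With the trend with length and GC content removed from each library, Fbn1 stood at -0.13 (adjusted p = 0.587) in Sham and -0.67 (adjusted p = 0.0808) in PM offspring. Relative to the median of all genes, Fbn1 was at -0.28 in Sham and -0.82 in PM offspring, and with TMM scaling the Sham value was -0.30 (adjusted p = 0.152). Gm9913 on the opposite strand shares 2442 exonic bases with Fbn1, and the strand setting of the counting is not given in the sources used here, but Gm9913 held at most 1.01 RPM.

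Fbn2 (ENSMUSG00000024598.9, chromosome 18), the second fibrillin, was close to the detection limit. It ranged from 0.571 to 1.46 RPM in Sham (9 to 24 reads) and from 1.28 to 2.52 RPM in PM (20 to 43 reads). Sham-OVA libraries held 2.08, 1.28, 0.621, 1.04 and 0.511 RPM, which overlapped Sham on both sides (log2 fold change 0.04 ± 0.25, SE, adjusted p = 0.895). PM-OVA libraries held 1.55, 0.541, 0.266 and 0 RPM, and the log2 fold change was -1.20 ± 0.33 (SE, adjusted p = 0.00636). These values rest on 23, 7, 2 and 0 reads, and the count of 0 in PM-OVA replicate 4 allows a level of up to 0.545 RPM (3 reads, counting error only). The call was lost with edgeR on the recovered reads (-1.06, adjusted p = 0.0789), with the length and GC trend removed (-0.64, adjusted p = 0.0778) and in the deeper libraries alone (-0.58, adjusted p = 0.125). In Sham offspring Fbn2 was called higher with the length and GC trend removed (0.64, adjusted p = 0.0403) and with quantile normalisation (0.61, adjusted p = 0.0388).

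Mfap5 (ENSMUSG00000030116.14, chr6:122505845-122529290, forward strand), which encodes the microfibril-associated glycoprotein MAGP-2, rose in both cohorts. Sham libraries ranged from 13.0 to 30.04 RPM (median 18.6), and the Sham-OVA libraries held 50.2, 48.2, 42.9, 42.1 and 42.3 RPM. No Sham-OVA library overlapped Sham, and the log2 fold change was 1.27 ± 0.19 (SE, adjusted p = 3.59e-05), 2.42-fold. PM libraries ranged from 17.7 to 35.0 RPM (median 23.6) and PM-OVA libraries held 33.1, 39.2, 44.2 and 28.9 RPM, of which 2 lay above every PM library. The log2 fold change in PM offspring was 0.60 ± 0.20 (SE, adjusted p = 0.0165), and without PM-OVA replicate 3 it was 0.51 (adjusted p = 0.0582).

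Mfap4 (ENSMUSG00000042436.12, chr11:61485431-61488900, forward strand), a fibrinogen-related protein of microfibrils, was the most abundant of the 10 and was not called. It ranged from 706 to 1446 RPM in Sham, and the Sham-OVA libraries held 1112, 1207, 437, 1198 and 892 RPM (log2 fold change -0.22 ± 0.25, SE, adjusted p = 0.456). In PM lung it ranged from 789 to 4445 RPM, and the PM-OVA libraries held 1944, 1301, 661 and 586 RPM (-0.51 ± 0.45, SE, adjusted p = 0.324). The lowest value of each OVA group came from its shallowest library. With the length and GC trend removed, Mfap4, whose longest transcript has 1770 bases, was called lower in Sham offspring (-0.74, adjusted p = 0.0314). Mapk7, on the opposite strand with 89 shared exonic bases, held at most 46.3 RPM.

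The 3 fibulins, secreted glycoproteins that bind elastin and fibrillin, went separate ways. Fbln2 (ENSMUSG00000064080.12, chr6:91212455-91272540, forward strand) had the largest change of the 10 genes in both cohorts on the scale of RPM, whereas in Sham offspring Eln (1.82) and Mfap5 (1.73) were larger in size than Fbln2 (-1.47) with TMM scaling. It ranged from 12.6 to 23.2 RPM in Sham (median 17.96), and the Sham-OVA libraries held 4.52, 4.21, 4.66, 2.79 and 5.48 RPM. All 5 lay below every Sham library, with a log2 fold change of -1.90 ± 0.20 (SE, adjusted p = 1.42e-06), 3.74-fold lower. In PM lung Fbln2 ranged from 13.1 to 25.4 RPM (median 18.02), and the PM-OVA libraries held 5.91, 5.87, 1.86 and 1.63 RPM, all 4 below every PM library. The log2 fold change in PM offspring was -2.27 ± 0.32 (SE, adjusted p = 0.00014), 4.81-fold lower. Over the alternative fits, its highest adjusted p was 0.000379 in Sham and 0.0114 in PM offspring, and its log2 fold change stayed between -2.16 and -1.41 and between -2.76 and -1.51.

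Fbln1 (ENSMUSG00000006369.14, chr15:85205949-85286535, forward strand) moved the other way. It ranged from 21.1 to 33.2 RPM in Sham (median 29.1), and the Sham-OVA libraries held 53.7, 59.7, 39.5, 57.1 and 41.7 RPM, all 5 above every Sham library. The log2 fold change was 0.81 ± 0.15 (SE, adjusted p = 0.000339), 1.75-fold. PM libraries ranged from 15.3 to 35.0 RPM (median 29.4) and PM-OVA libraries held 76.9, 38.2, 32.8 and 24.9 RPM, which overlapped. The log2 fold change of 0.54 ± 0.28 in PM offspring did not pass the test (SE, adjusted p = 0.111), but it stood at 0.90 (adjusted p = 0.00507) with median-of-ratios scaling and 1.00 (adjusted p = 0.00219) with TMM scaling, and at 0.76 (adjusted p = 0.0372) without PM-OVA replicate 4. With the length and GC trend removed it was 0.41 (adjusted p = 0.234). Without PM replicate 5 and Sham replicate 1 it was also 0.41 (adjusted p = 0.185). Over all alternatives it lay between 0.15 and 1.00.

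Fbln5 (ENSMUSG00000021186.9, chr12:101746565-101819055, reverse strand), which tethers elastin to cells and binds Loxl1, was called in neither cohort. It ranged from 126 to 198 RPM in Sham, and the Sham-OVA libraries held 136, 141, 90.7, 141 and 144 RPM (log2 fold change -0.35 ± 0.15, SE, adjusted p = 0.0538). In PM lung it ranged from 148 to 244 RPM, and the PM-OVA libraries held 202, 142, 111 and 109 RPM (-0.40 ± 0.19, SE, adjusted p = 0.0741). Its direction depended on the scaling, with 0.1115 in Sham and 0.0643 in PM offspring under TMM. Leaving out Sham replicate 1 gave -0.41 in Sham (adjusted p = 0.0245) and leaving out PM-OVA replicate 1 gave -0.59 in PM offspring (adjusted p = 0.00465), both past the threshold. RefSeq holds 2 windows, for 2 starts, for each of Fbln1 and Fbln5, and the 250 bases before the start whose window lies outside annotated exons are printed here for each, 5′ to 3′ on the strand of the gene, with motif matches in capitals. The Fbln1 window lies at chr15:85205699-85205948 on the forward strand and the Fbln5 window at chr12:101819120-101819369 on the reverse strand of GRCm38.p6.
Fbln1: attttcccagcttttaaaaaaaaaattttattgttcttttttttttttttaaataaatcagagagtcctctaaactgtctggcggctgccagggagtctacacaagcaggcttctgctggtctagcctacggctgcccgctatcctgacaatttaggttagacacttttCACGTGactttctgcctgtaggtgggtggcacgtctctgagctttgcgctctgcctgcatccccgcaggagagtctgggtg
Fbln5: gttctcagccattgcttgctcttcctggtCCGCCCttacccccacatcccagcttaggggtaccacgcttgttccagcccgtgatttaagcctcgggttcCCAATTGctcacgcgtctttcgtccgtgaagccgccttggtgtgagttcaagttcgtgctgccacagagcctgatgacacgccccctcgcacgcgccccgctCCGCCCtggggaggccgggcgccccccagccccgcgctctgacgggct
The motifs searched on both strands were the box of TATA promoters, with the letters TATAAA, and the binding site known as the GC box, with the letters GGGCGG. Also searched were the site of AP-1, with the letters TGANTCA, the E-box, with the letters CANNTG, and the CCAAT box by its name. The Fbln1 window held 1 E-box match, 81 bases before the start. The Fbln5 window held 2 GC box matches, 221 and 48 bases before the start, and 1 CCAAT box match that overlaps an E-box match. Of 32851 windows of the same length in RefSeq, 66.2% held the E-box letters, 32.7% the GC box, 33.8% the CCAAT box, 12.4% the TATA box and 6.75% the AP-1 site, so these matches are a description. RefSeq windows were matched for Fbn1, Fbln1, Fbln2 and Fbln5, and those of Fbn1 and Fbln2 and the other windows of Fbln1 and Fbln5 are not printed because they overlap annotated exons. The other Fbln1 window held 1 GC box and 2 E-box matches and the other Fbln5 window held 0 matches, so the matches differed between starts of the same gene. The other Fbln1 window, at chr15:85205758-85206007, overlaps the printed one. Its E-box match 140 bases before its start is the same site as the match in the printed window. For Fbln5, the bases after either start were found in no annotated transcript.

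The lysyl oxidases also split. Lox (ENSMUSG00000024529.14, chromosome 18), the enzyme that oxidises lysines of elastin and collagen for cross-linking, ranged from 83.9 to 313 RPM in Sham (median 161), and the Sham-OVA libraries held 73.3, 77.2, 26.7, 89.6 and 58.0 RPM. Of these, 4 lay below every Sham library, with a log2 fold change of -1.44 ± 0.34 (SE, adjusted p = 0.00185), 2.71-fold lower. In PM lung Lox ranged from 113 to 295 RPM (median 190), and in PM-OVA it was 116, 72.6, 42.8 and 33.8 RPM. The log2 fold change was -1.72 ± 0.35 (SE, adjusted p = 0.00109), 3.28-fold lower, with replicate 1 just inside the PM range. In the 3 libraries of lowest depth Lox was also lowest of its group or next to it, and in the deeper libraries alone it was at -1.149 (adjusted p = 0.00143) in Sham and -1.085 (adjusted p = 0.0237) in PM offspring. The longest Lox transcript has 4741 bases, and genes of 4 to 8 kb had median differences of -0.869 in Sham and -0.827 in PM offspring. With the length and GC trend removed, Lox was at -0.94 (adjusted p = 0.0149) in Sham and -1.18 (adjusted p = 0.00643) in PM offspring.

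Loxl1 (ENSMUSG00000032334.10, chr9:58287738-58313186, reverse strand), the oxidase that is targeted to elastic fibres through Fbln5, was not called. It ranged from 116 to 215 RPM in Sham, and the Sham-OVA libraries held 205, 191, 185, 183 and 169 RPM, inside the Sham range (log2 fold change 0.11 ± 0.16, SE, adjusted p = 0.563). In PM lung it ranged from 177 to 289 RPM, and the PM-OVA libraries held 296, 154, 158 and 142 RPM (-0.31 ± 0.20, SE, adjusted p = 0.194). In Sham offspring it was called higher with median-of-ratios scaling (0.48, adjusted p = 0.0299) and TMM scaling (0.57, adjusted p = 0.00996). It was also called higher there with edgeR (0.56, adjusted p = 0.0104) and DESeq2 (0.48, adjusted p = 0.0177). With the length and GC trend removed it was at -0.18 in Sham (adjusted p = 0.371) and called lower in PM offspring (-0.68, adjusted p = 0.025). Without PM-OVA replicate 1 it was also called lower in PM offspring (-0.55, adjusted p = 0.0047).

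**Figure D3:**
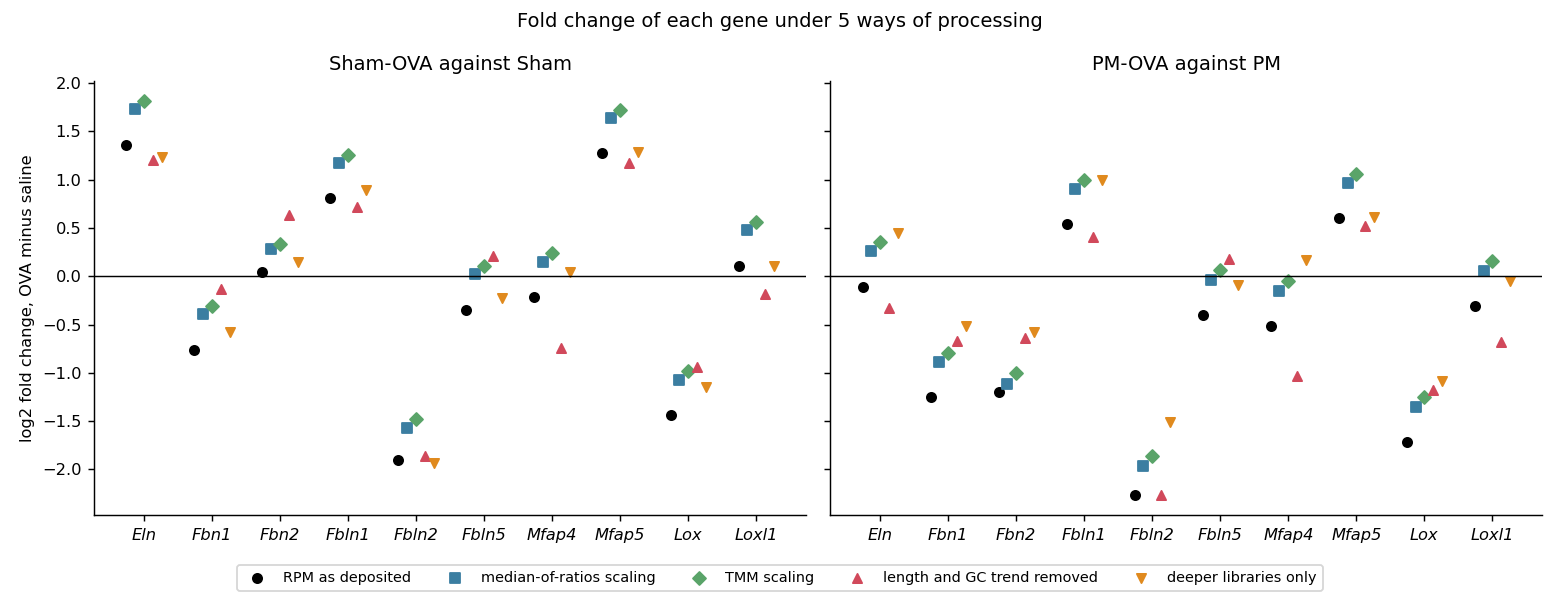
Log2 fold change of each gene after OVA under 5 ways of processing, for Sham offspring (left) and PM offspring (right). Fbln2 and Lox stay below 0 and Fbln1 and Mfap5 above 0 in both panels, Eln stays above 0 in Sham offspring and lies on both sides of 0 in PM offspring, and Fbn1 comes close to 0 in Sham offspring with the length and GC trend removed.

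Library depth and the level of these genes ran together in PM-OVA. The shallowest library, replicate 4, was lowest for 10 of 10 genes, replicate 1, the deepest, was highest for 9, and 8 genes followed the full order of depth. In Sham-OVA, 0 genes followed that order and the shallowest library was lowest for 5. The share of all genes in such an order is not given here, so nothing particular to the 10 genes is read from these counts. Over all genes of 4 to 8 kb, the median difference from PM was -0.321, -0.588, -1.16 and -1.21 in PM-OVA replicates 1 to 4, in the same order. Over genes of 1 to 2 kb it was 0.164, 0.361, -0.0272 and -0.152. The part of depth in the PM-OVA values was not tested, and it is shared with the length trend, whose slope per doubling of length ran from -0.23 in replicate 1 to -0.54 in replicate 3.

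To ask whether maternal PM2.5 alone altered these genes, PM was compared with Sham. With limma, 0 of the 10 and 0.0% of all genes passed, and edgeR and DESeq2 on the recovered reads also called 0 genes. At an unadjusted p under 0.05 there were 3 of the 10 genes and 731 of 16795 genes (4.35%). Those 3 were Fbn2 (log2 fold change 0.56 ± 0.17, SE), Fbn1 (0.45 ± 0.17) and Loxl1 (0.36 ± 0.14), each with an adjusted p of 0.898 in limma. Eln stood at 0.71 ± 0.36 (SE, limma adjusted p = 0.898), with 2 of 7 PM libraries above every Sham library. In all, 9 of the 10 log2 fold changes were above 0, as were 55.1% over all genes, and PM replicate 5 was the highest PM library for 8 of the 10. Without that library and Sham replicate 1, Eln stood at 0.64 and Fbn1 at 0.39.

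Among challenged animals, PM-OVA against Sham-OVA gave 0 of 10 genes and 0.0% of all genes in limma, 0 of the 10 and 313 genes (1.86%) at an unadjusted p under 0.05, and 0 of the 10 with edgeR or DESeq2. Eln was 1.69-fold lower in PM-OVA, a log2 fold change of -0.76 ± 0.38 (SE, limma adjusted p = 1), with an interval of 2 SE from -1.52 to 0.00245. Values for Mfap5 (-0.32 ± 0.17) and Fbn2 (-0.67 ± 0.43) were also below 0 without passing (SE, limma adjusted p = 1 for both). In the deeper libraries alone, Eln stood at -0.08.

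Whether the OVA response differed between cohorts was tested with an interaction term over all 23 libraries. Of the 10 genes, 0 passed in limma, edgeR or DESeq2, and 0.0% of all genes did in limma. The terms of all 10 were below 0, as were 50.8% over all genes, and 3 of the 10 had an unadjusted p under 0.05, compared with 5.08% of all genes. Those were Eln (-1.47 ± 0.57, SE, limma adjusted p = 0.736), Fbn2 (-1.24 ± 0.42, adjusted p = 0.643) and Mfap5 (-0.67 ± 0.27, adjusted p = 0.83). The call of Eln in Sham but not in PM offspring is therefore not shown to be a difference between cohorts. In the deeper libraries alone, the term of Eln was -0.79.

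Other genes of the pathway are given from 4 lists of 58 genes, of which 54 were tested and 33 passed in each cohort, 16 higher and 17 lower in Sham and 15 higher and 18 lower in PM offspring. That is 61.1% of them, beside 68.1% and 65.3% of all genes, so no higher a share. With TMM scaling the split was 22 higher and 14 lower in Sham and 19 higher and 12 lower in PM offspring. Of all 16795 genes, TMM gave 5293 higher and 5907 lower in Sham and 5345 higher and 5498 lower in PM offspring. The trend with transcript length was not removed from the values given for these lists, and the part of length in them was not tested. Of 18 other elastic fibre and microfibril genes, 3 rose and 8 fell in Sham (median -0.38) and 3 rose and 7 fell in PM offspring (median -0.66). Efemp2, the fibulin-4 that brings Lox to tropoelastin, rose from a median of 36.6 RPM in Sham to 96.2 in Sham-OVA and from 36.6 RPM in PM to 128 in PM-OVA. Its log2 fold changes were 1.481 (adjusted p = 1.39e-05) and 1.476 (adjusted p = 0.00132). Mfap2, which encodes MAGP-1, rose by 1.049 and 1.299 on the log2 scale. Ltbp4, a latent TGF-beta binding protein that also takes part in elastic fibre assembly, fell by 1.901 in Sham and fell by 1.498 in PM offspring, and its median went from 646 RPM in Sham to 190.4 RPM in Sham-OVA. The metalloprotease gene Adamts6 fell by 1.49 and 2.13.

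Of 11 tested genes for other lysyl oxidases, enzyme maturation and copper supply, 1 rose in each cohort, and 5 fell in Sham and 6 in PM offspring. The copper chaperone Atox1 rose by 2.33 in Sham and 2.12 in PM offspring on the log2 scale. Atp7a, the copper pump that loads lysyl oxidases in the secretory pathway, ranged from 7.24 to 31.2 RPM in Sham and 19.8 to 30.8 RPM in PM. In Sham-OVA it was at most 0.226 RPM, with 2 of 5 libraries at 0, and in PM-OVA at most 1.75 RPM, with 2 of 4 at 0, giving fitted log2 fold changes of -5.14 (adjusted p = 2.18e-08) and -5.08 (adjusted p = 8.75e-07) that depend on the pseudocount. The protease Tll1, a relative of Bmp1, fell by 1.79 and 1.03. Bmp1, which removes the propeptide of Lox, was at -0.35 (adjusted p = 0.105) and -0.27 (adjusted p = 0.234), and Loxl2 at 0.19 (adjusted p = 0.444) and -0.07 (adjusted p = 0.79), so neither was called.

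The elastases and their inhibitors carried the largest rises. Of 13 tested, 7 rose and 1 fell in Sham (median 1.06), and 6 rose and 1 fell in PM offspring (median 0.38). Mmp12, the macrophage elastase, rose from 4.17 to 14.5 RPM in Sham to 378 to 919 RPM in Sham-OVA, and from 4.58 to 14.7 RPM in PM to 573 to 761 RPM in PM-OVA, by 6.57 and 6.32 on the log2 scale. Slpi, a secreted inhibitor of neutrophil elastase, rose from 15.3 to 41.0 RPM in Sham to 4543 to 8187 RPM in Sham-OVA, by 7.86, and by 7.69 in PM offspring. Timp3, a matrix-bound inhibitor of metalloproteases, fell by 1.51 and 1.09. Of 12 receptor genes, 5 rose in each cohort, and 3 fell in Sham and 4 in PM offspring. Lgals3 (galectin-3) rose by 2.23 and 1.97 and Glb1, whose splice form is the elastin-binding protein, rose by 2.02 and 1.86, while the integrin gene Itga8 fell by 3.165 in Sham and fell by 2.893 in PM offspring, and Itgb1 fell by 1.12 and fell by 1.29. In the same libraries 5 of 8 leukocyte markers rose, and their part in these values was not tested.

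Markers of the cells that make elastic fibres also moved. Of 12 fibroblast markers, 10 fell in Sham and 11 in PM offspring and 0 rose, and their summed level went from 6790 to 8740 RPM in Sham to 1620 to 4260 RPM in Sham-OVA and from 7440 to 8840 RPM in PM to 2090 to 5590 RPM in PM-OVA. The 8 smooth muscle markers summed to 719 to 976 RPM in Sham and 1010 to 1980 RPM in Sham-OVA, with 4 rising and 4 falling, and to 638 to 1670 RPM in PM and 798 to 2110 RPM in PM-OVA, with 3 rising and 3 falling. Myofibroblast markers (6 genes) summed to 201 to 259 RPM in Sham and 90.4 to 199 RPM in Sham-OVA. Cartilage markers (6 genes) summed to 0.93 to 1.86 RPM in Sham, 11.2 to 19.6 RPM in Sham-OVA, 1.34 to 3.09 RPM in PM and 7.81 to 14 RPM in PM-OVA. Nearly all of the OVA sums was Sox9, without which they were at most 1.01 RPM, and 1 or 2 of the 6 were at 0 in every library of each group. Their part in the results on the 10 genes was not tested. The marker sums and calls were not corrected for the trend with transcript length. Under that trend, genes over 8 kb had a median difference after OVA of -1.22 (log2) for Sham and -1.18 for PM offspring. The part of length in the marker values was not tested.

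Each gene was therefore also set against the mean log2 level of the 12 fibroblast markers of the same library. This difference depends on library scaling only through the pseudocount of 0.5 RPM, which matters for low genes. It was compared by two-sided exact permutation tests with adjustment over 20 comparisons. The trend with length after OVA was not removed from this difference. The longest transcripts of the members run from 1770 bases (Mfap4) to 11971 (Fbn1), and the part of length was not tested. The fibroblast markers themselves fell, and most genes were higher on this scale. At an unadjusted exact p under 0.05, 63.4% of all 16795 genes were higher and 10.7% lower in Sham offspring and 68.4% and 8.37% in PM offspring, with median differences of 0.85 and 0.96. In Sham offspring 8 of 10 differed, each of them higher relative to the fibroblast markers, and their median over the 10 was 1.24. The 8 include Fbn2 (1.37, exact adjusted p = 0.00505), whose levels lay near that pseudocount. Eln stood at 0.42 ± 0.83 in Sham and 3.11 ± 0.97 in Sham-OVA (log2, SD), a difference of 2.69, Mfap5 differed by 2.60, Fbln1 by 2.14, Loxl1 by 1.44 and Fbln5 by 0.98 (exact adjusted p = 0.00421 for each, from the smallest p of 0.00126 that the design allows). Lox differed by -0.11 (exact adjusted p = 0.742) and Fbln2 by -0.57 (exact adjusted p = 0.0673), but by -0.82 (exact adjusted p = 0.00505) without Sham-OVA replicate 3. In PM offspring 6 of 10 differed, 5 higher and 1 lower, and their median over the 10 was 0.93, so the members that were higher numbered no larger a share than all genes there. Mfap5 differed by 1.99, Fbln1 by 1.92, Loxl1 by 1.08, Fbln5 by 0.99 and Fbln2 by -0.88 (exact adjusted p = 0.00505 for each, with a smallest p of 0.00303), and Eln by 1.28 (exact adjusted p = 0.0186), while Lox differed by -0.33 (exact adjusted p = 0.286). Against smooth muscle markers instead, 3 genes were higher and 3 lower in Sham and 1 higher and 4 lower in PM offspring, and Eln in PM offspring was at -0.14. The share of all genes on the smooth muscle scale is not given here, so nothing is read from these counts.

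**Figure D4:**
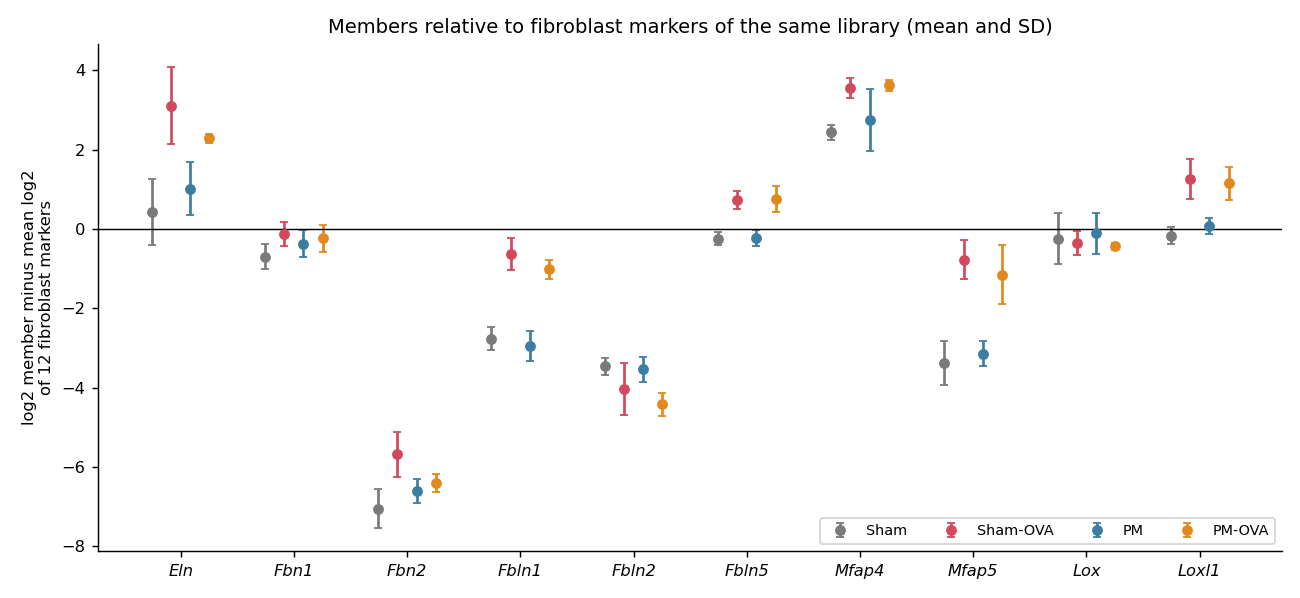
Log2 level of each gene minus the mean log2 level of 12 fibroblast markers in the same library, as the mean and SD of each group. Eln, Fbln1, Fbln5, Mfap5 and Loxl1 stood higher in both OVA groups than in their controls, whereas Lox overlapped between all 4 groups.

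Within the unchallenged groups Eln varied widely, which let its relation to the other genes be described over 14 libraries after subtraction of each group mean. Of the 9 relations computed, those with Lox (Pearson r = 0.854, Spearman rho = 0.846, permutation p = 0.00025 and 0.00066, adjusted 0.00225 and 0.00594), Fbn1 (r = 0.848, rho = 0.793, permutation p = 0.00106 and 0.00316, adjusted 0.00477 and 0.0142) and Loxl1 (r = 0.725, rho = 0.71, permutation p = 0.00658 and 0.00842, adjusted 0.0197 and 0.0253) passed. Without the 2 libraries farthest from the median of Eln, Sham replicate 7 and PM replicate 5, r was 0.834, 0.848 and 0.613. Within Sham and PM separately, r was 0.862 and 0.842 for Lox, 0.768 and 0.953 for Fbn1 and 0.641 and 0.879 for Loxl1 (n = 7 each). The other 6 relations lay between -0.153 (Fbln1) and 0.508 (Fbln2) and did not pass. Over all 16795 genes, Lox was the fourth closest to Eln and Fbn1 the sixth, behind Ormdl1 (0.898), AU040320 (0.856) and Uggt1 (0.854). The closest to Lox were Slc43a2 (0.919), Veph1 (0.906) and Kcnj15 (0.862), with Eln the fifth. All values of a library share its RNA, its depth and its scaling.

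**Figure D5:**
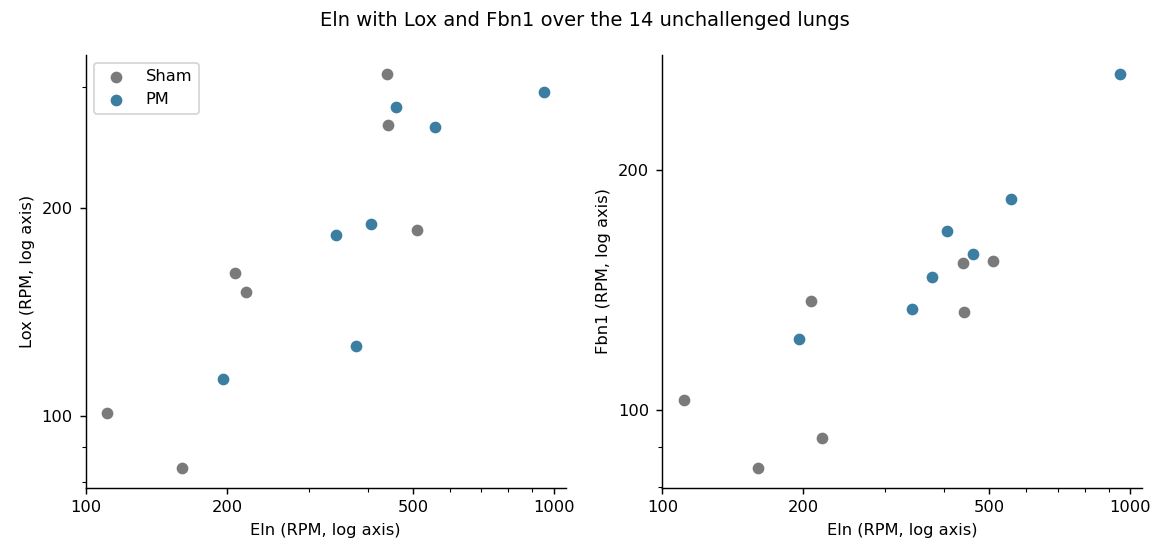
Lox (left) and Fbn1 (right) against Eln in RPM on logarithmic axes, 1 point per unchallenged library. Libraries with more Eln held more of both, from 111 RPM of Eln in Sham replicate 7 to 952 RPM in PM replicate 5.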

How the data were processed

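RNA-Seq of lung from 23 offspring was analysed, grouped by the maternal exposure and challenge in their labels. The methods name Trimmomatic for trimming, Bowtie2 for alignment (GRCm38) and SeqMonk for the counting. The kit was stranded, but whether strand was used in counting is not given in the sources used here. The deposited values carry the name RPKM. In every library 100% of them were whole multiples of 1 read (tolerance 0.01) whatever the gene length, so they were used as the authors' RPM, and the reads were recovered for edgeR 4.0.16 and DESeq2 1.42.0. Bowtie2 does not split reads over introns, so junction reads are covered in part only.

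Values were transformed to log2(RPM + 0.5), which understates changes of low genes. The 16795 genes that reached 0.5 RPM in 4 or more libraries entered limma-trend (limma 3.58.1, R 4.3.3). Each fit held only the groups compared, all 4 for the interaction, and p-values were adjusted over all genes by Benjamini-Hochberg. Coordinates and lengths were taken from GENCODE M21, promoters from RefSeq. Lengths covered 98.5% of tested genes. The limma fits were tested on simulated data in which 200 genes changed 4-fold. All 200 were recovered in each comparison, with 9 to 13 false calls. Those data had the same dispersion for every gene and no trend with length. The OVA libraries had such a trend, so the simulation says little about smaller changes or about that trend. Figures were drawn with matplotlib 3.10.9.

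The members and gene lists were chosen with earlier results of these data known. Named from each list are the 2 genes that rose most and the 2 that fell most among those called in both cohorts, plus Atp7a, Bmp1, Efemp2, Loxl2, Mmp12 and Mfap2. Alternatives were other pseudocounts, filters, scalings, thresholds, tools, depths, weights, replicate blocks, removal of the length and GC trend, and leaving out each library. The fits on the deeper libraries and without PM replicate 5 and Sham replicate 1, and the threshold of the study in edgeR and DESeq2, were chosen after seeing the data. P-values measure the spread between these libraries.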

Additional observations from a re-analysis of the deposited data

Results flagged for a closer look

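Each gene was examined in each of the 4 groups for 1 library that stood apart from the others by Dixon's test, and 3 of 40 sets did, where chance flags about 1 in 20. Fbln5 in Sham-OVA replicate 3, the library with the fewest reads, was at 90.7 RPM, and the next lowest of its group at 136 RPM. Mfap4 in PM replicate 5 was at 4445 RPM, and the next highest at 1609 RPM. Loxl1 in PM-OVA replicate 1, the deepest library of its group, was at 296 RPM, and the next highest at 158 RPM.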

How the results depend on the processing

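The count of members called after OVA stayed within 1.5 times the reported count in Sham offspring, 6 or 7 without any 1 library, and was 4 to 7 in PM offspring without any 1 library. The same fits called 10893 to 12129 of all genes in Sham and 9576 to 12080 in PM offspring. With the threshold of the study it was 0 in both cohorts. Of the 54 tested pathway list genes, 9 passed that threshold for Sham and 3 for PM offspring, beside 4.51% and 0.286% of all genes. In edgeR that threshold gave 1 and 0 members and 14 and 3 list genes, beside 8.26% and 0.25% of all genes. In DESeq2 it gave 3 and 1 members and 21 and 15 list genes, beside 28.7% and 16.8% of all genes. Replicate numbers were not taken as pairs: the correlations of same-numbered libraries, over the 4 comparisons, ran from -0.311 to 0.617, and not every library correlated best with its own number. PM-OVA replicates 1 and 3 did correlate best with their own number in Sham-OVA (0.595 and 0.617). The numbers are those of the sample titles. Most OVA libraries have another number in their library names, and pairing by those names was not tested. With the replicate block, 3 members were called in PM offspring, and 2 with the length and GC trend also removed, where Lox was at -0.89 (adjusted p = 0.102). Those fits called 7982 and 6848 of all 16795 genes, compared with 10968 in the main fit, so calls were lost over all genes too. The block changed no count of calls in the other comparisons by over 1.5 times. With array weights 3 members (Fbn1, Fbn2, Fbln1) had an interaction, in a fit that called 4616 genes.

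Of members that were not called, several changed sign. In PM offspring, Eln (-0.11) was at 0.26 with median-of-ratios scaling, 0.36 with TMM, 0.0372 with quantile normalisation, 0.17 with edgeR and 0.17 with DESeq2, 0.20 with the replicate block, 0.44 in the deeper libraries and 0.0863 without PM replicate 5 and Sham replicate 1, and from -0.35 to 0.16 without any 1 library. Fbln5 was at 0.0643 with TMM, 0.17 with the length and GC trend removed and 0.32 with the block too. Loxl1 was at 0.0559 with median-of-ratios scaling, 0.16 with TMM, 0.0926 with edgeR and 0.0998 with DESeq2, and Mfap4 at 0.16 in the deeper libraries. In Sham offspring, Fbln5 was at 0.0233 with median-of-ratios scaling, 0.11 with TMM, 0.11 with edgeR, 0.0228 with DESeq2, 0.21 with the length and GC trend removed and 0.27 with the block too. Mfap4 was at 0.15 with median-of-ratios scaling, 0.24 with TMM, 0.24 with edgeR, 0.16 with DESeq2 and 0.0452 in the deeper libraries, and from -0.32 to 0.0452 without any 1 library. Loxl1 was at -0.0265 with array weights, -0.18 with the length and GC trend removed and -0.18 with the block too. Fbn2 was at -0.0232 with the block and from -0.15 to 0.19 without any 1 library. Against smooth muscle markers in PM offspring, Eln was at -0.14, Fbln5 at -0.43 and Loxl1 at -0.34, and in Sham offspring Fbln5 was at -0.35. Against fibroblast markers, Lox in Sham offspring was from -0.24 to 0.0642 without any 1 library. The cause of these changes was not tested. The call of Fbn1 in Sham offspring was lost with median-of-ratios scaling, TMM, edgeR, DESeq2 and the length and GC trend removed.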
